A study of Mus musculus with 16 samples.

Results

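The comparison described here sets mouse embryonic stem cells in the inhibitor medium called 2i against cells in serum. Both media held LIF, the cytokine that keeps mouse embryonic stem cells dividing without differentiating. Of the 16 single-colour Agilent arrays of the series 8 belong to it and were chosen by title, 4 in the group 2i_LIF and 4 in the group LIF_serum. The labels call the 2i_LIF cells ground state and the LIF_serum cells naive. All 8 samples were of the strain 129/Ola, at passages 22 to 24 in 2i_LIF and 23 to 26 in LIF_serum. The other arrays of the series, 4 of primed epiblast stem cells and 4 of cells that received SB431542, an inhibitor of the Activin and Nodal receptors, besides 2i and LIF, entered only the estimate of spread and 1 comparison at the end. Each array holds a different line, derived in its medium from embryos before implantation, so that the spread within a group is that between lines. Feeder layers, doses and the sex of the embryos are not given in the labels.

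As background, 2i joins an inhibitor of MEK, the kinase above ERK, with an inhibitor of GSK3, the kinase that marks beta-catenin for destruction. FGF4 made by the cells themselves drives ERK, and ERK activity prepares them to leave the pluripotent state. Beta-catenin relieves repression of pluripotency genes by the factor Tcf7l1. Serum adds undefined growth factors, among them BMPs. Mouse cells moved from serum to 2i are known for low DNA methylation and an even expression of pluripotency factors.

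Levels below are log2 of the background-subtracted signal less that array's 75th percentile, so that 0 marks the 75th percentile of its probes. Myc, Rnf43, Cnn1, Col1a2, Ccnd2, Peg10, Flt1 and Cldn6 were well above background on 3 of 4 2i_LIF arrays, so that their differences include a background value. Values of different genes come from different probes and are not set against each other. A gene was called where the difference between groups was at least 2-fold and limma's p-value, adjusted by Benjamini-Hochberg over 15517 genes, was under 0.05. Between 53.3% and 61.7% of probes were well above background on 2i_LIF arrays and between 51.5% and 60.8% on LIF_serum arrays, and no spot was saturated. In 2i_LIF 2841 genes were called, 18.3% of those tested, with 970 higher (6.25%) and 1871 lower (12.1%). The groups did not overlap in 27.2% of genes, 13.1% with every 2i_LIF array above every LIF_serum array and 14.1% with every one below. The median difference over all genes was 0.02, and none of 11 reference genes such as Gapdh and Tbp was called, with 2 of them at an unadjusted limma p under 0.05.

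**Figure D1:**
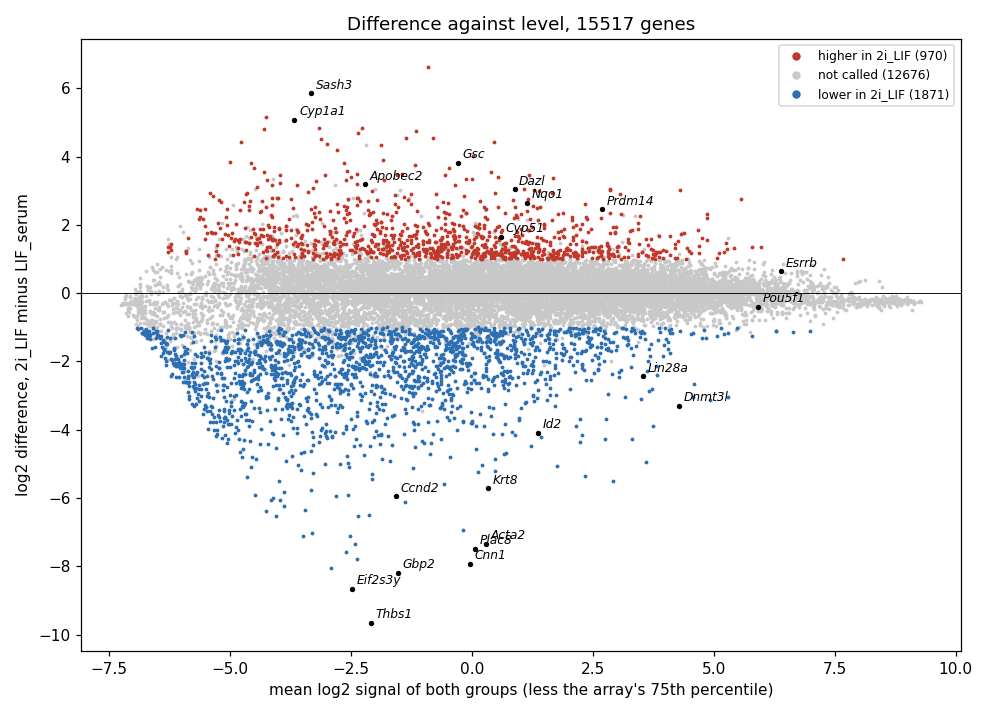
Log2 difference between 2i_LIF and LIF_serum (vertical axis) against the mean log2 signal of both groups (horizontal axis), 1 point per gene. The 1871 lower genes reach farther from 0 than the 970 higher ones, down to Thbs1 at −9.66, a fitted value and no bound since it was dim in 2i_LIF, and Pou5f1 and Esrrb lie within 2-fold at high signal.

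The LIF_serum arrays fell into pairs. Arrays 1 and 2 carry the code LS and were scanned on slide 1 with 2i_LIF arrays 1, 2 and 3, while arrays 3 and 4 carry the code LSFF and were scanned on slide 2 with 2i_LIF array 4. The meaning of the codes is not given in the labels. Correlations across genes were 0.990 and 0.995 within these pairs and 0.955 to 0.965 between them, and 0.962 to 0.984 among 2i_LIF arrays. Code and slide cannot be told apart, so values against each pair are given beside several results. The fit treated the 4 LIF_serum arrays as independent, so that its SEs and p-values take no account of these pairs. The Y-linked genes Eif2s3y and Ddx3y were not well above background on any 2i_LIF array, whereas Eif2s3y lay at 3.61, 3.91 and 4.12 on LIF_serum arrays 1, 3 and 4 and at −4.26 on array 2. Xist, the RNA of the silenced X chromosome, was well above background on LIF_serum array 2 alone, at −1.89. The groups therefore differ in sex chromosome content as read from RNA, and medium and this content cannot be told apart.

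Markers of pluripotency checked the labels. Pou5f1, the core factor Oct4, had levels of 5.87, 5.92, 5.80 and 5.25 on 2i_LIF arrays, against 6.39, 6.14, 5.97 and 5.92 on LIF_serum arrays. All 8 arrays were bright, and the difference of −0.40 (SE 0.16, adjusted p = 0.08) was not called. Sox2, its partner, was not called either, at 0.32 (SE 0.16, adjusted p = 0.14). Of 20 naive pluripotency genes 6 rose and none fell, where 6.25% of all genes rose and 12.1% fell, and their median difference was 0.67. Prdm14, a factor that silences FGF signalling and de novo methyltransferases, was at 3.97, 4.39, 3.51 and 3.74 on 2i_LIF arrays, against 1.77, 1.29, 1.32 and 1.42 on LIF_serum arrays. Every 2i_LIF array lay above every LIF_serum array, and Prdm14 rose by 2.46 (SE 0.33, adjusted p = 9.2e-05). Tbx3, a T-box factor of the LIF-responsive network, rose by 1.73 (SE 0.30, adjusted p = 0.00062). Tcl1, a coactivator of Akt, rose by 1.47 (SE 0.35), and Nr5a2, a nuclear receptor that binds the Oct4 promoter, by 1.41 (SE 0.36). Klf5 and Tfcp2l1, 2 further naive factors, rose by 1.14 (SE 0.26) and 1.13 (SE 0.30). The Klf5 call was lost without LIF_serum array 4 (0.97, adjusted p = 0.016), since the difference then fell short of 2-fold, and that of Tfcp2l1 without 2i_LIF array 2 (0.90) or LIF_serum array 3 (0.97). Esrrb (0.64, SE 0.19), Klf2 (−0.34, SE 0.25) and Klf4 (−0.19, SE 0.28), all naive factors, were not called.

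The naive genes separated the pairs of LIF_serum arrays. Their median difference was 0.09 against LIF_serum arrays 1 and 2, with 3 genes higher and 2 lower, and 1.06 against arrays 3 and 4, with 9 higher and none lower. Nr5a2, for example, read 4.18, 4.60, 4.17 and 4.40 on 2i_LIF arrays, against 3.78 and 3.69 on LIF_serum arrays 1 and 2 and 2.07 and 2.17 on arrays 3 and 4. Against arrays 1 and 2 alone its difference was 0.60 (adjusted p = 0.14), and the calls of Tcl1 (1.01, adjusted p = 0.095), Klf5 (0.73, adjusted p = 0.08), Tfcp2l1 (0.77, adjusted p = 0.15) and Nanog (0.90, adjusted p = 0.037) were lost too. Prdm14 and Tbx3 kept theirs.

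Among 15 core pluripotency genes Nanog rose (6.67%), and Lin28a and Utf1 fell (13.3%). These shares were near those of all genes, 6.25% and 12.1%. Nanog, the factor whose uneven expression marks serum cultures, was at 4.83, 4.88, 4.10 and 4.13 on 2i_LIF arrays, against 3.67, 3.50, 2.99 and 2.96 on LIF_serum arrays, and rose by 1.20 (SE 0.24, adjusted p = 0.0017). As the median over its probes the Nanog difference was 0.77, under 2-fold. Lin28a, which blocks maturation of let-7 microRNAs, was at 1.67, 2.53, 2.63 and 2.44 on 2i_LIF arrays, against 4.44, 4.43, 5.15 and 4.97 on LIF_serum arrays. The arrays of the groups stood well apart, and Lin28a fell by 2.43 (SE 0.23, adjusted p = 4e-06). Utf1, a chromatin protein of pluripotent cells, fell by 1.17 (SE 0.24, adjusted p = 0.0022). Of 17 genes of the primed epiblast, the state after implantation, 7 fell and none rose (median −0.97). Pou3f1 (Oct6), the POU factor of the primed state, was at −1.35, −0.91, −0.16 and −1.33 on 2i_LIF arrays, against 1.84, 2.52, 2.33 and 2.53 on LIF_serum arrays, and fell by 3.25 (SE 0.27, adjusted p = 1.4e-06). Fst, which binds Activin, fell by 2.57 (SE 0.53), and Nrcam, a neural adhesion molecule, by 2.16 (SE 0.44).

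**Figure D2:**
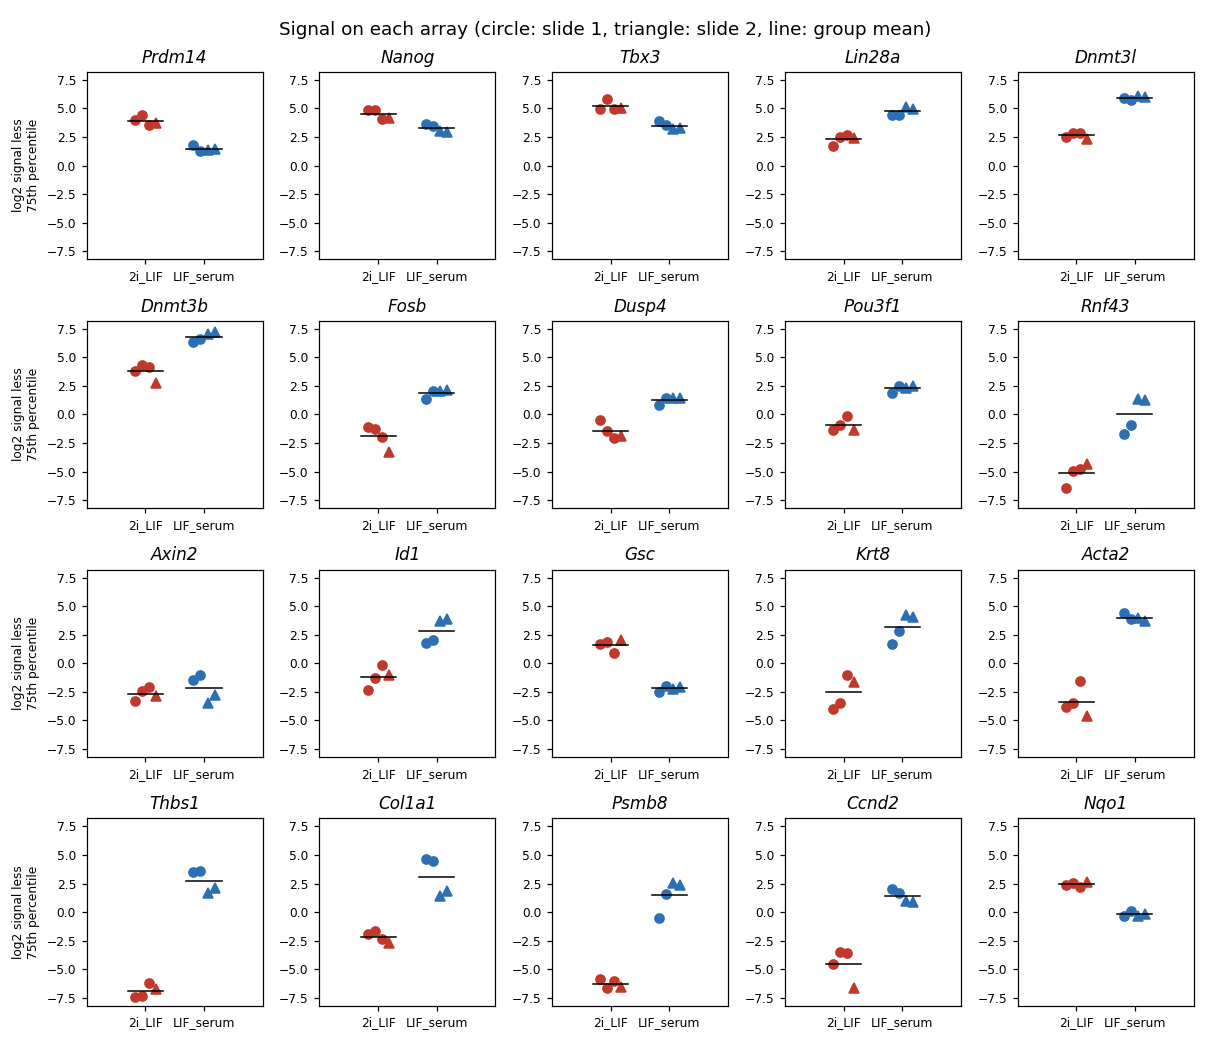
Log2 signal less the 75th percentile on each array for 20 genes, 2i_LIF on the left (red) and LIF_serum on the right (blue), with the group mean as a line. The groups do not overlap for any gene shown except Axin2, and LIF_serum arrays on slide 1 and slide 2 separate for Rnf43, Id1, Thbs1 and Col1a1.

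Of the machinery that sets new DNA methylation Dnmt3l and Dnmt3b were lower in 2i_LIF, and the machinery that copies it was not called. Dnmt3l, the cofactor that activates the de novo enzymes, was at 2.53, 2.83, 2.88 and 2.29 on 2i_LIF arrays, against 5.87, 5.73, 6.09 and 6.04 on LIF_serum arrays. Both groups were tight, and Dnmt3l fell by 3.30 (SE 0.16, adjusted p = 1.9e-08). Dnmt3b, a de novo methyltransferase, was at 3.81, 4.32, 4.16 and 2.77 on 2i_LIF arrays, against 6.38, 6.59, 7.05 and 7.20 on LIF_serum arrays, and fell by 3.04 (SE 0.40, adjusted p = 8.3e-05). Dnmt3a, the other one, was lower on every 2i_LIF array, but its difference of −0.97 (SE 0.25, adjusted p = 0.009) fell short of 2-fold. Dnmt1, the maintenance enzyme, was at 0.41 (SE 0.18, adjusted p = 0.1), Uhrf1, which guides it to new DNA, at 0.46 (SE 0.18, adjusted p = 0.071), and Tet1, which oxidises methylcytosine, at 0.64 (SE 0.32, adjusted p = 0.14). Of the 13 genes of the list 2 rose (15.4%), Prdm14 among them, and 2 fell (15.4%), against 6.25% and 12.1% of all genes. The share of falls was thus near that of all genes, and the list's median was 0.31.

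Germline genes, many of which are silenced by promoter methylation, held a larger share of rises than all genes. Of 19 tested 6 rose (31.6%) and 2 fell (10.5%), against 6.25% and 12.1% of all genes. Their median was 0.93, and 3 were higher against LIF_serum arrays 3 and 4 alone. Dazl, an RNA-binding protein of germ cells, was at 2.50, 2.59, 1.77 and 2.74 on 2i_LIF arrays, against −1.36, −1.12, −0.18 and 0.09 on LIF_serum arrays, and rose by 3.04 (SE 0.48, adjusted p = 0.00035). Asz1, of the piRNA pathway, was at 0.60, 0.10, −3.27 and −2.64 on 2i_LIF arrays, against −7.00, −5.39, −3.31 and −3.37 on LIF_serum arrays. The highest levels were those of 2i_LIF arrays 1 and 2, 2 of 4 LIF_serum arrays were well above background, and Asz1, which rose by 3.47 (SE 0.95, adjusted p = 0.013), was not called against LIF_serum arrays 3 and 4 alone (2.04, adjusted p = 0.13). Sycp3, of the synaptonemal complex, fell by 1.65 (SE 0.31, adjusted p = 0.0012). Ddx4 (Vasa), a germ cell helicase, fell by 1.14 (SE 0.35, adjusted p = 0.023), a call lost without 2i_LIF array 1 (−1.08) or 2 (−0.91), and without LIF_serum array 3 (−1.1) or 4 (−1.07). Among 19 Polycomb genes Bmi1, a subunit of the complex that ubiquitinates histone H2A, was at 1.47, 1.95, 1.03 and 1.63 on 2i_LIF arrays, against −1.36, −1.54, −0.70 and −0.45 on LIF_serum arrays. It rose by 2.54 (SE 0.27, adjusted p = 1.2e-05), and 2 others fell. The shares of that list, 5.26% higher and 10.5% lower, were near those of all genes (6.25% and 12.1%). Bmi1 is known as a repressor of Cdkn2a, and Cdkn2a rose too, by 2.21 (SE 0.23, adjusted p = 1.2e-05).

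Of 26 genes induced by ERK 10 fell and none rose (median −0.97). Fosb, an immediate early factor, was at −1.15, −1.25, −1.98 and −3.30 on 2i_LIF arrays, against 1.33, 2.08, 2.03 and 2.13 on LIF_serum arrays. All LIF_serum arrays lay above all 2i_LIF arrays, and Fosb fell by 3.81 (SE 0.53, adjusted p = 0.00013). Dusp4, a phosphatase that returns ERK to rest, was at −0.50, −1.45, −2.05 and −1.91 on 2i_LIF arrays, against 0.83, 1.42, 1.47 and 1.46 on LIF_serum arrays, and fell by 2.77 (SE 0.44, adjusted p = 0.00035). Its relative Dusp2 fell by 2.64 (SE 0.39), Phlda1 by 2.38 (SE 0.29), Fos by 1.67 (SE 0.38) and Spry1, a feedback inhibitor, by 1.58 (SE 0.22). Egr4, of the early growth response family, fell by 3.28 (SE 0.83, adjusted p = 0.0084), with 3 of 4 2i_LIF arrays well above background.

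Not all known ERK responders moved. Dusp6, a feedback phosphatase often used as a readout of ERK, was at 1.76, 2.69, 2.28 and 1.97 on 2i_LIF arrays, against 3.26, 3.44, 1.66 and 1.83 on LIF_serum arrays. All 2i_LIF values lay below LIF_serum arrays 1 and 2. That of 2i_LIF array 1 lay between LIF_serum arrays 3 and 4, and the other 2i_LIF values lay above both. The difference of −0.37 (SE 0.39, adjusted p = 0.51) turned to 0.43 against LIF_serum arrays 3 and 4 alone. Egr1 was at −0.67 (SE 0.41, adjusted p = 0.24) and Etv5, an ETS factor, at 0.04 (SE 0.20, adjusted p = 0.91). The list as a whole had a median of −1.23 against LIF_serum arrays 1 and 2 and of −0.27 against arrays 3 and 4. Myc, a growth regulator downstream of ERK and LIF, was at −4.32, −1.26, −2.90 and −5.19 on 2i_LIF arrays, against 0.62, 0.86, −1.61 and −1.42 on LIF_serum arrays. The groups overlapped, and although Myc fell by 3.03 (SE 0.99, adjusted p = 0.032), the call was lost without 2i_LIF array 1 (−2.72) or 4 (−2.44), without LIF_serum array 1 (−2.69) or 2 (−2.61), and against LIF_serum arrays 3 and 4 alone (−1.90, adjusted p = 0.23).

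The FGF and MEK/ERK components themselves were mostly not called (median −0.01). Of 24 tested 1 rose (4.17%) and 5 fell (20.8%), against 6.25% and 12.1% of all genes. Fgf5, the ligand of the primed epiblast, was at −5.78, −4.42, −2.92 and −7.30 on 2i_LIF arrays, against −1.85, −0.26, −2.04 and −2.13 on LIF_serum arrays. Only 2 of the 2i_LIF arrays were well above background, and Fgf5 fell by 3.54 (SE 0.90, adjusted p = 0.0083). Fgf15, another FGF ligand of the embryo, fell by 2.45 (SE 0.64, adjusted p = 0.0097). Fgf4, the ligand the cells make to drive ERK, was not called, at 0.38 (SE 0.18, adjusted p = 0.12). Mapk3, which encodes ERK1, fell by 1.14 (SE 0.23, adjusted p = 0.0022). Against LIF_serum arrays 3 and 4 alone the calls of Egr4 (−2.65, adjusted p = 0.065), Fgf5 (−3.02, adjusted p = 0.053) and Fgf15 (−2.10, adjusted p = 0.063) were lost, and against arrays 1 and 2 alone that of Mapk3 (−0.83).

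Targets of beta-catenin did not rise as a list in these arrays. Of 19 tested 1 rose and 7 fell (median −0.52). Rnf43, which removes Wnt receptors from the cell surface, was at −6.41, −4.92, −4.77 and −4.32 on 2i_LIF arrays, against −1.69, −0.96, 1.35 and 1.29 on LIF_serum arrays, and fell by 5.10 (SE 0.93, adjusted p = 0.00093). T (Brachyury), a Wnt-induced factor of the primitive streak, was at −5.58, −4.68, −6.20 and −5.70 on 2i_LIF arrays, against −2.94, −0.54, −3.31 and −3.11 on LIF_serum arrays. LIF_serum array 2 was the highest and 1 of 4 2i_LIF arrays was well above background, so that the difference of −3.06 (SE 0.72, adjusted p = 0.0052) includes background values. Ascl2 fell by 2.34 (SE 0.33, adjusted p = 0.00013) and Nkd1, a feedback inhibitor, by 2.03 (SE 0.40). Lef1, a partner of beta-catenin, fell by 1.61 (SE 0.49, adjusted p = 0.022), a call lost without 2i_LIF array 2 (−1.57) or 4 (−1.22), without LIF_serum array 1 (−1.32) or 2 (−1.41), and against LIF_serum arrays 3 and 4 alone (−0.89, adjusted p = 0.21).

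Axin2, the most used Wnt reporter gene, was at −3.34, −2.44, −2.11 and −2.89 on 2i_LIF arrays, against −1.46, −0.99, −3.44 and −2.81 on LIF_serum arrays. The groups overlapped, and the difference of −0.52 (SE 0.47, adjusted p = 0.44) was 0.44 against LIF_serum arrays 3 and 4 alone. Notum, a secreted enzyme that inactivates Wnt ligands, was the riser, at 3.37, 4.15, 3.58 and 3.57 on 2i_LIF arrays, against 2.94, 2.73, 1.98 and 1.61 on LIF_serum arrays. It rose by 1.35 (SE 0.28, adjusted p = 0.0025), or by 0.83 against LIF_serum arrays 1 and 2 alone, where it was not called. Of 19 pathway components 1 rose (5.26%) and 5 fell (26.3%), against 6.25% and 12.1% of all genes. Gsk3b, which encodes a kinase that the medium inhibits, rose by 1.08 (SE 0.24, adjusted p = 0.0042), a size just past 2-fold that fell short of it without 2i_LIF array 2 (0.99) or 3 (0.93) or without LIF_serum array 3 or 4 (0.96 each), with the slide as a block (0.91) and as the median over its probes (0.49, adjusted p = 0.079). Porcn, the X-linked enzyme that lipidates Wnt ligands, was at 1.01, 1.13, −0.98 and −2.15 on 2i_LIF arrays, against 3.01, 3.06, 2.36 and 2.56 on LIF_serum arrays, and fell by 3.0 (SE 0.65, adjusted p = 0.0031). Fzd2, a Wnt receptor, fell by 2.41 (SE 0.36).

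Id1 and Id2, inhibitors of basic helix-loop-helix factors that BMP induces, were both lower. Id1 was at −2.30, −1.33, −0.19 and −1.0 on 2i_LIF arrays, against 1.81, 2.04, 3.72 and 3.91 on LIF_serum arrays, and fell by 4.07 (SE 0.54, adjusted p = 8.6e-05). Id2 was at −0.75, −0.08, −0.95 and −0.93 on 2i_LIF arrays, against 1.80, 2.30, 4.65 and 4.90 on LIF_serum arrays, and fell by 4.09 (SE 0.59, adjusted p = 0.00016). For both, LIF_serum arrays 3 and 4 were the highest. Id3, a further member, was at −1.82 (SE 0.75, adjusted p = 0.083), with 2i_LIF array 2 above all LIF_serum arrays, and was not called. In all 2 of 14 BMP targets rose (14.3%) and 4 fell (28.6%), against 6.25% and 12.1% of all genes.

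Of 14 Nodal and Activin targets 4 rose and none fell (median 0.35), with 1 higher against LIF_serum arrays 1 and 2 and 6 against arrays 3 and 4. Gsc (goosecoid), a homeobox factor of the organiser, was at 1.66, 1.85, 0.91 and 2.02 on 2i_LIF arrays, against −2.49, −1.96, −2.27 and −2.08 on LIF_serum arrays, with a wide gap between the groups. Nodal, the ligand, rose by 1.09 (SE 0.26, adjusted p = 0.0065), but against LIF_serum arrays 1 and 2 alone its difference was 0.56 (adjusted p = 0.11), and without 2i_LIF array 2 or 4 (1.0 each after rounding) or LIF_serum array 3 (0.93) or 4 (0.90) it was under 2-fold. Lefty2, a Nodal antagonist and target, was at 4.29, 3.72, 3.22 and 5.72 on 2i_LIF arrays, against 3.23, 3.75, 1.24 and 1.29 on LIF_serum arrays. The groups overlapped, and Lefty2, which rose by 1.86 (SE 0.55, adjusted p = 0.02), was not called without 2i_LIF array 4 (1.37), without LIF_serum array 3 (1.48) or 4 (1.5), or against LIF_serum arrays 1 and 2 alone (0.75). LIF was in both media. Of 15 LIF and STAT3 genes 3 rose (20%) and 2 fell (13.3%), against 6.25% and 12.1% of all genes. None was higher against LIF_serum arrays 1 and 2 alone, and 5 were higher against arrays 3 and 4 alone. Neither Socs3, the feedback inhibitor (−0.15, SE 0.12, adjusted p = 0.41), nor Stat3 (−0.01, SE 0.16, adjusted p = 0.98) was called. Cish, another SOCS-family inhibitor, fell by 1.65 (SE 0.26, adjusted p = 0.00038). Osmr, the oncostatin M receptor, was well above background on LIF_serum arrays 1 and 2 alone, at −0.21 and −0.65, and on no 2i_LIF array, so that no fold is given for its call (adjusted p = 0.012).

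Genes of the contractile cytoskeleton, many of which the factor SRF controls through CArG boxes, were among the largest falls. Of 19 such genes 11 fell and none rose (median −1.65). Acta2, smooth muscle actin, was at −3.84, −3.44, −1.58 and −4.65 on 2i_LIF arrays, against 4.40, 3.84, 3.94 and 3.68 on LIF_serum arrays. The LIF_serum arrays were alike and far above, and Acta2 fell by 7.34 (SE 0.53, adjusted p = 4e-07). Cnn1, the actin-binding calponin of smooth muscle, was at −4.71, −5.35, −3.13 and −2.86 on 2i_LIF arrays, against 2.94, 3.36, 4.62 and 4.74 on LIF_serum arrays, and fell by 7.93 (SE 0.60, adjusted p = 6.8e-07). Tagln, which bundles actin, was at −0.14, 0.17, 0.97 and −0.36 on 2i_LIF arrays, against 5.34, 5.33, 6.02 and 6.0 on LIF_serum arrays. Acta1, skeletal actin, fell by 6.13 (SE 0.74), with 2 of 4 2i_LIF arrays well above background, and Tpm2, a tropomyosin, by 3.30 (SE 0.41). Myl9, a regulatory myosin light chain, was at −1.63, 0.16, −0.14 and 0.20 on 2i_LIF arrays, against 4.77, 4.79, 5.21 and 5.24 on LIF_serum arrays, and fell by 5.35 (SE 0.43, adjusted p = 1.3e-06). Srf itself was not called, at 0.10 (SE 0.20, adjusted p = 0.74). The list's median was −1.25 against LIF_serum arrays 1 and 2 and −1.48 against arrays 3 and 4.

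Promoters of 2 of these genes are shown because both fell and both carry a CArG box, the binding word of SRF, in the window from 250 bases before to 50 bases after the annotated start. The sequences are RefSeq's, build GRCm38.p6, written 5′ to 3′ on the gene's strand, with the CArG box in capitals. The box was searched for on both strands in its strict form, with 6 bases of A or T between the outer pairs, and was found in 1.57% of 27025 promoters of that length and in 5 of the 16 promoters of the contractile list that were matched. Acta2, Cnn1 and Tpm2, which fell, hold no strict box in this window, whereas Srf, which was not called, holds 2. A match describes letters, not a bound site.
Myl9 (chr2:156775214-156775513, plus strand): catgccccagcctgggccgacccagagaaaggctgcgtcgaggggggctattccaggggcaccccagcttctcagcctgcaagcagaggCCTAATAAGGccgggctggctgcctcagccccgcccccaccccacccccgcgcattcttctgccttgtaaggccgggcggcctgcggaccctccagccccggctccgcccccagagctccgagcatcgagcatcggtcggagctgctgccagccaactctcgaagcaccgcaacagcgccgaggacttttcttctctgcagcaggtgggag
Acta1 (chr8:123894726-123895025, minus strand): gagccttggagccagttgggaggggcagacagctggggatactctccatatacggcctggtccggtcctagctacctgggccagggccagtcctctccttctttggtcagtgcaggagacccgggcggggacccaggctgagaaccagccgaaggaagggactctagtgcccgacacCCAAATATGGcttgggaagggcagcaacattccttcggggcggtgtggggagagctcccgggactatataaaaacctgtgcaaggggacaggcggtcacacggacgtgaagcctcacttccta

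Of 15 matricellular genes and targets of the mechanosensitive coactivator YAP 7 fell and none rose (median −1.74). Thbs1, thrombospondin, was not well above background on any 2i_LIF array and was at 3.54, 3.65, 1.65 and 2.07 on LIF_serum arrays, a level at least 235-fold lower in 2i_LIF (adjusted p = 3.3e-08). Such a bound sets the bright group's mean against the dimmest signal counted as above background. Ankrd1, a YAP target, lay at least 40.8-fold lower by the same bound (adjusted p = 7.3e-06). Ccn2 (CTGF) fell by 2.13 (SE 0.35, adjusted p = 0.00045) and Ccn1 (CYR61) by 2.03 (SE 0.52, adjusted p = 0.0085), with Ccn1 not called against LIF_serum arrays 1 and 2 alone (−1.92, adjusted p = 0.065). Yap1 was not called, at −0.09 (SE 0.11, adjusted p = 0.53).

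Fibroblast markers were the list with the largest contrast between the pairs of LIF_serum arrays. Of 22 tested 15 fell and none rose (median −2.81). Col1a1, the chain of type I collagen, was at −1.90, −1.67, −2.31 and −2.68 on 2i_LIF arrays, against 4.65 and 4.47 on LIF_serum arrays 1 and 2 and 1.38 and 1.81 on arrays 3 and 4. Col1a2, its partner chain, fell by 6.94 (SE 0.92, adjusted p = 8.4e-05). Twist2, a mesenchymal factor, lay at least 12.1-fold lower (limma's adjusted p = 1.9e-08), and Thy1 fell by 2.42 (SE 0.26). Vim, vimentin, was bright on all arrays and not called, at 0.03 (SE 0.33, adjusted p = 0.95). The median was −4.30 against LIF_serum arrays 1 and 2, with 18 of 22 lower, and −1.69 against arrays 3 and 4, with 13 lower. Within slide 2, where 2i_LIF has 1 array, it was −2.24. Per array the list lay at −1.46, −1.71, −1.38 and −2.02 in 2i_LIF, against 2.99, 2.73, 0.20 and 0.35 in LIF_serum, as its median distance from the mean of both groups. Its summed level ran from 5.42 to 5.95 in 2i_LIF and from 5.86 to 7.57 in LIF_serum. On 2i_LIF arrays 6 of the 22 markers were on no array well above background. Other cells or embryonic stem cells with these transcripts cannot be told apart in bulk RNA, nor can fewer cells of a type and less RNA per cell.

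Other genes of matrix and of further cell types were read in the same way. Of 20 collagens, laminins and integrins 8 fell and none rose (median −0.62). Timp2 and Timp3, inhibitors of matrix proteases, fell by 4.68 (SE 0.72) and 4.55 (SE 0.54), and both were highest on LIF_serum arrays 1 and 2. Lyz2, a macrophage lysozyme, was well above background on those arrays only, at −2.27 and −2.67, and on no 2i_LIF array, so that no fold is given. Its call (adjusted p = 0.029) was lost without any 1 of 2i_LIF arrays 1, 2 and 3 or of LIF_serum arrays 1 and 2, and against arrays 3 and 4 alone. It was the only 1 of 4 tested blood and macrophage markers to be called. Flt1, the VEGF receptor of endothelium, fell by 4.09 (SE 0.43, adjusted p = 1.2e-05), while 1 of the other 4 endothelial markers tested rose. How far such cells take part in the differences was not tested.

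Simple epithelial genes showed the opposite contrast between the pairs. Of 21 keratin and junction genes 11 fell and none rose (median −1.64). Krt8, a keratin of simple epithelia and trophectoderm, was at −3.97, −3.52, −1.04 and −1.61 on 2i_LIF arrays, against 1.65, 2.83, 4.21 and 4.03 on LIF_serum arrays. LIF_serum arrays 3 and 4 were the highest, 2i_LIF arrays 3 and 4 the higher of their group, and Krt8 fell by 5.71 (SE 0.71, adjusted p = 5.2e-05). Its partner Krt18 was at 1.1, −0.22, 1.82 and 1.83 on 2i_LIF arrays, against 4.39, 5.62, 7.13 and 7.12 on LIF_serum arrays, and fell by 4.93 (SE 0.59, adjusted p = 3.5e-05). Krt19 fell by 5.05 (SE 0.73) and the claudin gene Cldn6 by 4.37 (SE 0.73). Esrp1, an epithelial splicing factor, fell by 5.03 (SE 0.33, adjusted p = 2e-07). Cdh1 (E-cadherin), which holds embryonic stem cell colonies together, was not called, at −0.20 (SE 0.40, adjusted p = 0.74). The list's median was −1.05 against LIF_serum arrays 1 and 2, with 7 lower, and −2.22 against arrays 3 and 4, with 14 lower.

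Lineage genes of the early embryo were mostly lower where they moved. Of 17 primitive endoderm genes 8 fell and none rose (median −1.65), with a median of −0.61 and 4 lower against LIF_serum arrays 1 and 2, and of −3.03 and 14 lower against arrays 3 and 4. Dab2, an endocytic adaptor of primitive endoderm, lay at least 6.79-fold lower (adjusted p = 7.3e-07), being alike on all LIF_serum arrays, between −2.61 and −2.15. Col4a1, of basement membrane, was at −1.47, −1.21, −1.09 and −1.22 on 2i_LIF arrays, against −0.05, −0.12, 2.95 and 2.77 on LIF_serum arrays, and fell by 2.63 (SE 0.58, adjusted p = 0.0036). Lamb1, a laminin chain, fell by 2.81 (SE 0.34). Of 14 trophectoderm genes 5 fell and 3 rose, with a median of −0.22 against LIF_serum arrays 1 and 2 and of −2.32 against arrays 3 and 4. Tead4, the factor that starts trophectoderm, was at −0.51, 0.27, 0.62 and 0.35 on 2i_LIF arrays, against −0.85, −1.82, −1.99 and −2.03 on LIF_serum arrays, and rose by 1.85 (SE 0.28, adjusted p = 0.00025). Of 14 primitive streak genes 7 fell and 2 rose, with medians of −0.96 and −2.27 against the same pairs. The bound for Hand1, of mesoderm and trophoblast, was 6.51-fold lower or more (adjusted p = 0.00069) and that for Mesp1, of nascent mesoderm, 3.11-fold (adjusted p = 1.8e-05). Among 13 neural genes 1 fell (7.69%) and none rose. Of 20 Hox genes 4 rose (20%) and 2 fell (10%), where 6.25% of all genes rose and 12.1% fell. Hoxc4 rose by 2.69 (SE 0.30, adjusted p = 2.3e-05). Hox genes had a median of −0.97 with 8 lower against LIF_serum arrays 1 and 2, and of 0.32 with 1 lower against arrays 3 and 4. Of the 20 Hox genes 7 were well above background on no 2i_LIF array and 12 on all 4, so that these values include background.

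**Figure D3:**
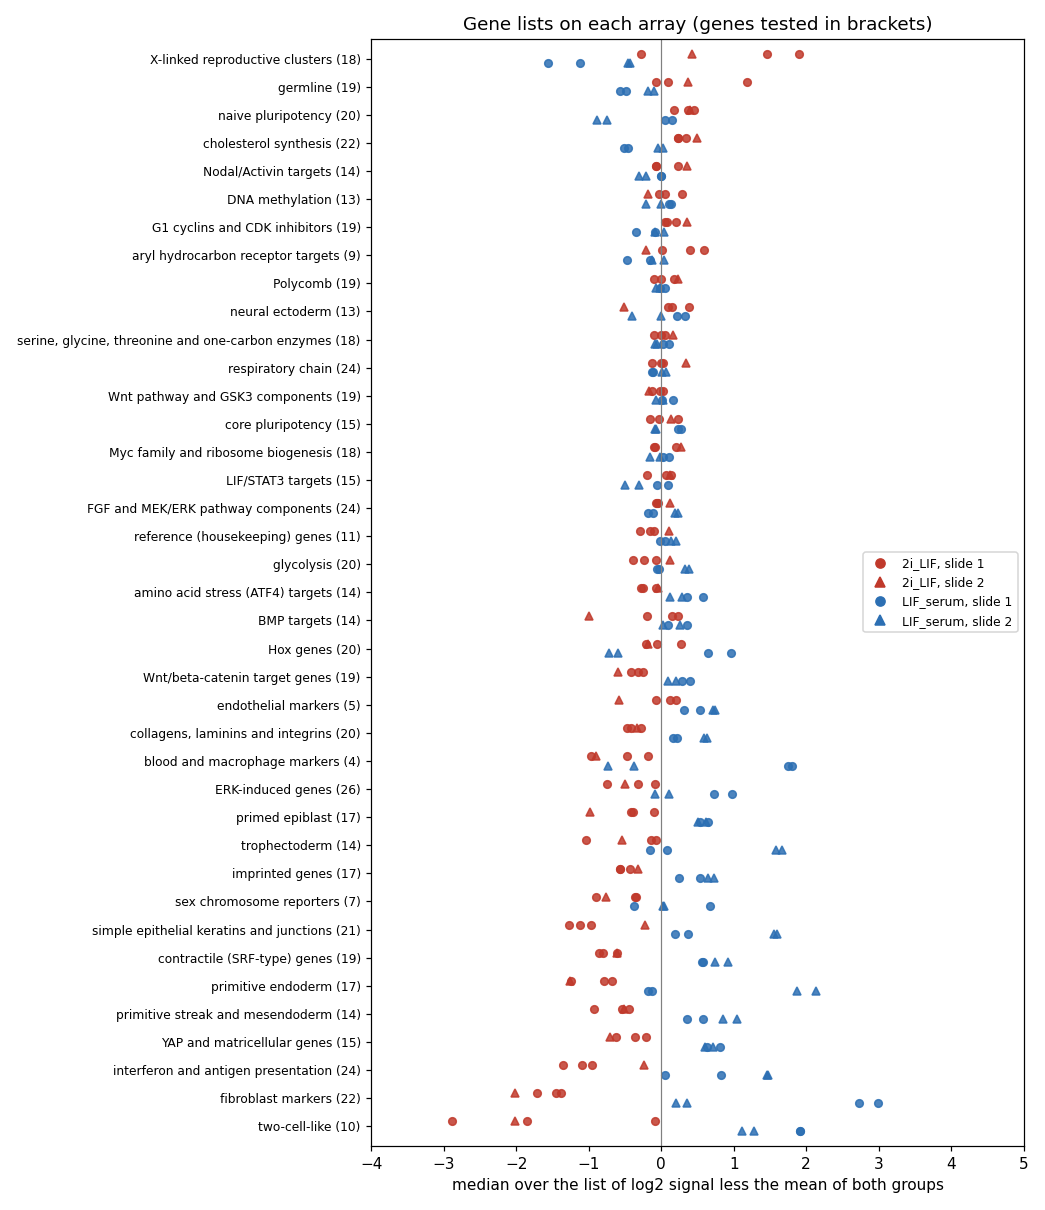
Median over each gene list of the log2 signal less the mean of both groups (horizontal axis), 1 mark per array, 2i_LIF in red above LIF_serum in blue, circles for slide 1 and triangles for slide 2. Contractile, YAP, imprinted and primed genes separate the groups on both slides, while for naive, ERK-induced, trophectoderm and Hox genes 1 pair of LIF_serum arrays lies near or beyond the 2i_LIF arrays.

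Genes of the interferon response and antigen presentation formed a large block of falls. Of 24 tested 16 fell and none rose (median −1.86). Gbp2, an interferon-induced GTPase, was at −4.76, −6.53, −4.28 and −6.97 on 2i_LIF arrays, against 0.50, 2.57, 3.61 and 3.53 on LIF_serum arrays. With 2 of 4 2i_LIF arrays well above background, its difference of −8.18 (SE 0.67, adjusted p = 1.4e-06) includes background values. Its relatives Gbp3 and Gbp2b were not well above background on any 2i_LIF array and lay at least 72.6-fold and 84.1-fold lower (adjusted p = 1.4e-06 for both). Psmb8, a catalytic subunit of the immunoproteasome, lay at least 101-fold lower (adjusted p = 9.8e-06) against LIF_serum levels of −0.48, 1.60, 2.55 and 2.36. Tap2, of the peptide transporter, fell by 4.39 (SE 0.61, adjusted p = 0.00012), Isg15, a ubiquitin-like modifier, by 2.79 (SE 0.31), and B2m, the shared chain of class I molecules, by 1.69 (SE 0.35, adjusted p = 0.0025). LIF_serum array 1 was the lowest of its group for Gbp2, Gbp3, Psmb8, Tap2 and B2m. Against LIF_serum arrays 1 and 2 alone the list's median was −1.29 with 12 lower, and against arrays 3 and 4 it was −2.49 with 15 lower. B2m was at −0.98 in the first of these, under 2-fold and not called. Its groups overlapped, with 2.82 on 2i_LIF array 4 and 2.78 on LIF_serum array 1.

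Promoters of 2 genes of this block are shown because both fell and both hold GAAANNGAAA, the core of the interferon-stimulated response element. The word was searched for on both strands, and matches may overlap. It stood in 3.49% of 27025 RefSeq promoters (GRCm38.p6, same window) and in 10 of the 21 matched promoters of the list. TTCNNNGAA, the word bound by STAT dimers, stood in 8.47% of all promoters and in 4 of the 21. Capitals mark GAAANNGAAA or its reverse complement, and in Gbp3 2 matches overlap.
Gbp3 (chr3:142559794-142560093, plus strand): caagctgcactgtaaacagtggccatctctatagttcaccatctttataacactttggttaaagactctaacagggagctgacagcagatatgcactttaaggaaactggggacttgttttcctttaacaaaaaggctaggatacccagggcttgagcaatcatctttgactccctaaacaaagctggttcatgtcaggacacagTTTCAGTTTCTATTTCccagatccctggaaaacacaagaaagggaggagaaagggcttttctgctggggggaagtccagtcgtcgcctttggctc
B2m (chr2:122147437-122147736, plus strand): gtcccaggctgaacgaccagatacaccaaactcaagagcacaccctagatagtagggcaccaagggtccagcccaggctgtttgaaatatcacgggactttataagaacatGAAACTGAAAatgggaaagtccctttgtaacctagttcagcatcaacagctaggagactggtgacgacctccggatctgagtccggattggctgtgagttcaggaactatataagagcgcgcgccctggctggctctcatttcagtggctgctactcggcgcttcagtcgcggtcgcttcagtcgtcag

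Genes of the 2-cell-like state, a rare state of serum cultures, were lower. Of 10 tested 7 fell and none rose (median −3.35). Zscan4c, of a cluster that guards telomeres, was at −2.21, −3.04, 0.15 and −1.71 on 2i_LIF arrays, against 4.17, 3.58, 2.18 and 2.10 on LIF_serum arrays, and fell by 4.71 (SE 0.89, adjusted p = 0.0012). 2i_LIF array 3 was the highest of its group and LIF_serum arrays 1 and 2 were higher than 3 and 4. Zscan4a and Zscan4f, which are near-identical to it and may share probes' signal, fell by 4.87 (SE 0.86) and 4.37 (SE 0.92).

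Metabolic lists were largely without calls. Glycolysis (20 genes) and the respiratory chain (24 genes) held no called gene, with medians of −0.27 and 0.07. Against LIF_serum arrays 3 and 4 alone 3 glycolysis genes fell. At an unadjusted limma p under 0.05 stood 7 glycolysis genes and 1 respiratory chain gene. Of 22 cholesterol synthesis genes 3 rose and all had a positive difference (median 0.60). Against LIF_serum arrays 1 and 2 alone 9 rose (median 0.71), and against arrays 3 and 4 alone 3 rose (median 0.28). Cyp51, which demethylates lanosterol, was at 1.19, 1.63, 1.40 and 1.46 on 2i_LIF arrays, against −0.06, −0.22, −0.37 and −0.29 on LIF_serum arrays. Both groups were tight, and Cyp51 rose by 1.66 (SE 0.16, adjusted p = 4.2e-06). Hsd17b7, of the same pathway, rose by 1.15 (SE 0.18) and the X-linked Nsdhl by 1.19 (SE 0.26). Against LIF_serum arrays 3 and 4 alone Nsdhl was at 0.99, under 2-fold. Mat2a, which makes S-adenosylmethionine, rose by 1.30 (SE 0.33, adjusted p = 0.0087), not called against LIF_serum arrays 1 and 2 alone (0.97, adjusted p = 0.12), and Gldc, of the glycine cleavage system, fell by 1.17 (SE 0.24, adjusted p = 0.0024), or by 0.98, under 2-fold, without LIF_serum array 4. Among 14 genes of the amino acid stress response 5 fell and none rose, with Atf3 at −2.25 (SE 0.42), Ddit3 (CHOP) at −2.13 (SE 0.35) and the hormone gene Fgf21 lower by 5.54-fold or more (adjusted p = 0.00072).

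Of 19 genes of the G1 phase 2 rose (10.5%) and 3 fell (15.8%), against 6.25% and 12.1% of all genes. Ccnd2, cyclin D2, was at −4.52, −3.48, −3.56 and −6.66 on 2i_LIF arrays, against 2.04, 1.69, 0.97 and 0.86 on LIF_serum arrays. The difference of −5.95 (SE 0.71, adjusted p = 3.6e-05) far exceeded the spread. Ccnd1, cyclin D1, was not called, at 0.61 (SE 0.25, adjusted p = 0.078). Rbl1 (p107), a retinoblastoma relative, rose by 1.43 (SE 0.22), or by 0.77, under 2-fold, as the median over its probes. Cdkn2a, named above, lay at 3.92, 3.58, 3.58 and 4.02 on 2i_LIF arrays, against 1.69, 1.71, 1.34 and 1.49 on LIF_serum arrays. Cdkn1c (p57), an imprinted inhibitor, fell by 2.98 (SE 0.72, adjusted p = 0.0063), and was not called against LIF_serum arrays 1 and 2 alone (−2.72, adjusted p = 0.061).

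Imprinted genes are read from a single parental copy under the control of DNA methylation. Of 17 tested 10 fell and 1 rose (median −1.34). Phlda2, a placental growth restrictor, was at −1.93, −3.0, −2.93 and −3.52 on 2i_LIF arrays, against 2.12, 1.71, 1.68 and 2.25 on LIF_serum arrays, and fell by 4.79 (SE 0.52, adjusted p = 1.7e-05). Nnat fell by 4.32 (SE 0.39, adjusted p = 3e-06), Peg10, a retrotransposon-derived gene, by 4.41 (SE 0.74, adjusted p = 0.00053) and Dlk1, a Notch ligand relative, by 2.90 (SE 0.30, adjusted p = 1.1e-05). Genes expressed from the maternal copy, such as Phlda2 and Cdkn1c, and from the paternal copy, such as Peg10, Nnat and Dlk1, were both among the falls. The list's median was −1.14 against LIF_serum arrays 1 and 2, with 4 lower, and −1.51 against arrays 3 and 4, with 8 lower.

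**Figure D4:**
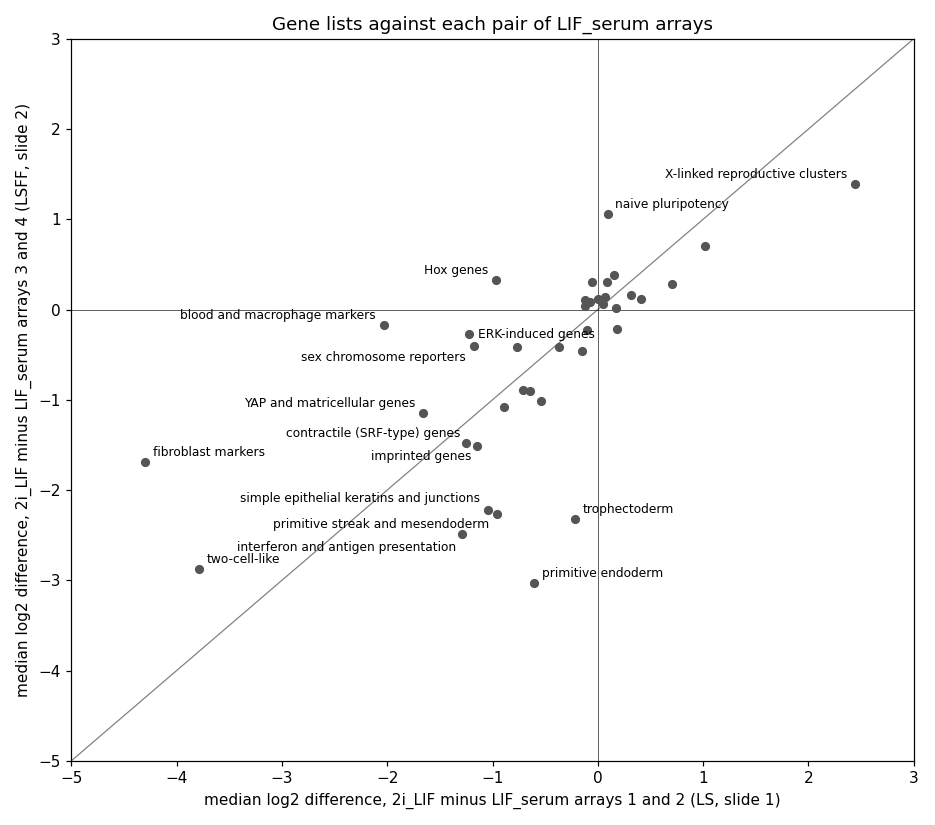
Median log2 difference of each gene list between 2i_LIF and LIF_serum arrays 1 and 2 (horizontal axis, code LS, slide 1) and between 2i_LIF and LIF_serum arrays 3 and 4 (vertical axis, code LSFF, slide 2), which share their 2i_LIF arrays, with a line of equality. Fibroblast markers lie at −4.30 and −1.69, primitive endoderm genes at −0.61 and −3.03, and naive pluripotency genes at 0.09 and 1.06.

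Nqo1, a quinone reductase induced through the aryl hydrocarbon receptor and NRF2, was at 2.40, 2.58, 2.23 and 2.62 on 2i_LIF arrays, against −0.34, 0.12, −0.32 and −0.19 on LIF_serum arrays, and rose by 2.64 (SE 0.20, adjusted p = 7.3e-07). Cyp1a1, the cytochrome that the same receptor induces, was at −1.13, 1.41, −1.03 and −3.78 on 2i_LIF arrays and not well above background on any LIF_serum array, a rise of at least 12.9-fold (adjusted p = 0.00087). These were the 2 genes called among 9 tested of a list that holds the receptor itself and other factors besides its targets. Apobec2, of the cytidine deaminase family, was at −1.41, −0.99, −0.13 and 0.02 on 2i_LIF arrays, against −3.97, −3.63, −3.63 and −4.01 on LIF_serum arrays, and rose by 3.18 (SE 0.29, adjusted p = 3e-06). Bhmt, which remethylates homocysteine, rose by 3.18 (SE 0.49, adjusted p = 0.00026), with 2.85 on 2i_LIF array 4 as its highest level. Snx20, a sorting nexin, rose by 2.98 (SE 0.32), the muscle gene Myom2 by 2.93 (SE 0.48), Nlrp4f, of an oocyte-expressed family, by 2.94 (SE 0.56), and the testis tubulin Tuba3b by 3.02 (SE 0.44). Mal (3.75, SE 0.55), Kiss1 (3.65, SE 0.69), St8sia6 (3.47, SE 0.54), Iqca (3.46, SE 0.68), Ppp1r14d (3.39, SE 0.31) and Dido1 (3.36, SE 0.57) rose too. The rule that named them admitted only genes whose groups did not overlap. Among genes above background in 2i_LIF alone, Sash3, an X-linked adaptor of lymphocytes, was at least 21.3-fold higher, Asb2 at least 5.46-fold, Ffar2 at least 4.83-fold, Ambp at least 4.77-fold, Hoxc11 at least 4.45-fold, Ehf at least 4.38-fold and Tcl1b4, of the Tcl1 cluster, at least 3.79-fold, with adjusted p-values from 5.2e-06 to 0.00087 in this group and for Cyp1a1. Tcl1b4 was not called with another background correction (0.89, adjusted p = 0.0012) or with no filter on dim probes (0.59, adjusted p = 0.24).

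Falls that no list holds included Plac8, a cysteine-rich protein, at −4.28, −3.70, −3.66 and −3.09 on 2i_LIF arrays, against 3.57, 3.62, 3.80 and 4.18 on LIF_serum arrays, a difference of −7.48 (SE 0.38, adjusted p = 1.9e-08). Prss23, a serine protease, lay at least 76.9-fold lower (adjusted p = 1.2e-09), Galnt3, which starts O-glycans, at least 38.1-fold (adjusted p = 1.6e-05). Kif1a, a neuronal kinesin, fell by 5.58 (SE 0.68), Spink1, a protease inhibitor, by 5.22 (SE 0.62), Stmn4, a stathmin, by 4.50 (SE 0.64) and the histone gene H2bu2 by 4.47 (SE 0.37).

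The X chromosome stood apart from the autosomes among the rises. Of 620 X-linked genes 79 were higher (12.7%) and 56 lower (9.03%), with a median of 0.32, against 3.57% to 7.45% higher on single autosomes. 2i_LIF arrays 1 and 2 stood apart from the others. The median X-linked gene lay 0.70, 0.51, −0.44 and −0.18 from the mean of both groups on 2i_LIF arrays, against −0.30, −0.19, −0.10 and −0.05 on LIF_serum arrays. The median autosomal gene lay between −0.06 and 0.12 on every array. In 336 of the 620 X-linked genes both 2i_LIF arrays 1 and 2 were above all other arrays. The same count was not made for autosomal genes, so that no share over all genes stands beside it. Of 18 genes of X-linked clusters expressed in reproductive tissue 11 rose and none fell (median 1.73), but 5 rose against LIF_serum arrays 1 and 2 alone (median 2.44) and 3 against arrays 3 and 4 alone (median 1.40). Xlr5a, of such a cluster, was at 2.39, 1.48, 0.43 and 2.37 on 2i_LIF arrays, against −3.57, −1.46, −0.96 and −0.66 on LIF_serum arrays, and rose by 3.33 (SE 0.64, adjusted p = 0.0014), its relative Xlr5b by 3.02 (SE 0.65) and DXBay18 by 3.46 (SE 0.59). These families have near-identical members, which 1 probe may not separate. The homeobox gene Rhox3h was at 1.78, 1.28, −3.06 and −3.15 on 2i_LIF arrays, against −4.17, −4.43, −3.91 and −4.30 on LIF_serum arrays. Only 2i_LIF arrays 1 and 2 were clearly raised, and the calls of Rhox3h (3.41, SE 1.15, adjusted p = 0.036) and Rhox3f (3.32, SE 1.13, adjusted p = 0.038) were lost without any single array of LIF_serum (3.20 to 3.51) or either of 2i_LIF arrays 1 and 2 (2.48 to 2.73). AV320801, an uncharacterised X-linked gene, rose by 4.01 (SE 1.05, adjusted p = 0.0097), not called against LIF_serum arrays 3 and 4 alone (2.56, adjusted p = 0.093), with 3.93 and 3.50 on 2i_LIF arrays 1 and 2 and −0.32 and 1.03 on arrays 3 and 4. With the X-linked genes left out 2711 genes were called, 915 higher.

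**Figure D5:**
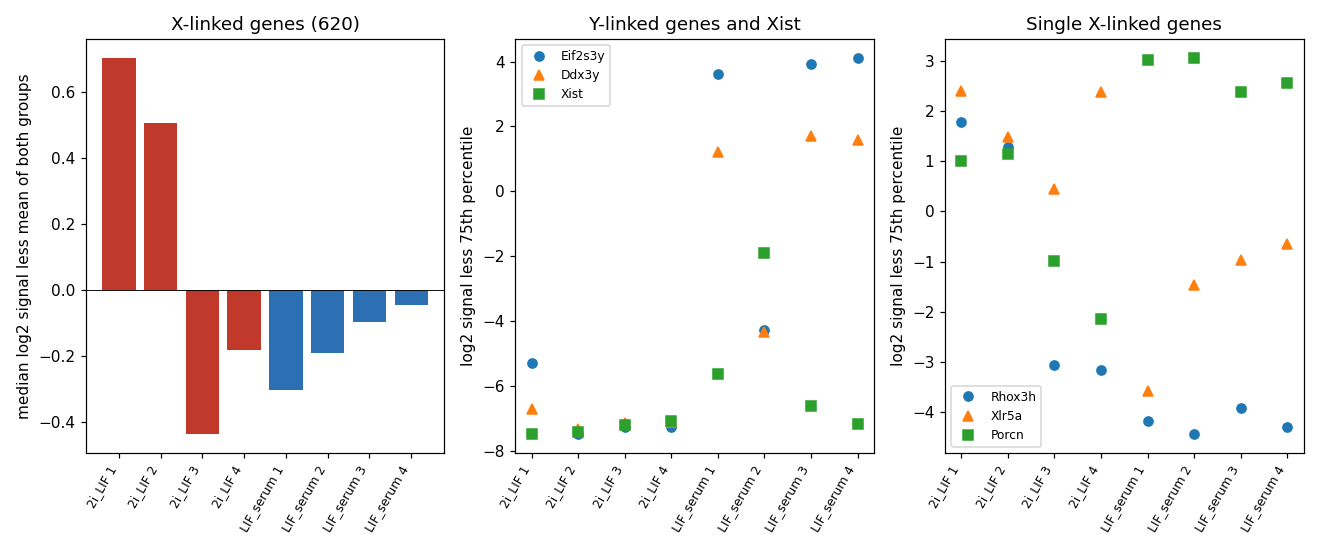
Left, median X-linked log2 signal less the mean of both groups on each array, over 620 genes. Middle and right, log2 signal less the 75th percentile of single Y-linked and X-linked genes on the same arrays, with 2i_LIF arrays at the left of each panel. 2i_LIF arrays 1 and 2 stand above 0 at 0.70 and 0.51, Eif2s3y is high on LIF_serum arrays 1, 3 and 4 and Xist on LIF_serum array 2.

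Few genes were called between the lines in 2i with SB431542 and the lines in 2i alone. The lines differ between these groups, so that differences small beside the spread between lines may be missed. Between 2iSB_LIF and 2i_LIF 13 of 15517 genes were called (0.0838%), 3 of them Nodal and Activin targets. Lefty2 was lower by a log2 difference of −6.13 (SE 0.55, adjusted p = 0.00013) in 2iSB_LIF. No gene of the ERK, Wnt, naive, contractile, fibroblast, epithelial or interferon lists was among the 13. With 0.0838% of all genes called, lists of this size would be likely to hold none, so that their absence says little.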

How the data were processed

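Mouse pluripotent stem cell lines were profiled on 16 single-colour Agilent arrays, 8 of which are described here. The deposited intensity values are background-subtracted processed signals from Agilent Feature Extraction, per the file headers, and were not scaled between arrays. A log2 table that the authors deposited served as an alternative, its normalization being unstated. Controls and outlier spots were left out. Probe names came from RefSeq accessions (GRCm38.p6, array build mm9). The 75th percentile of each array was subtracted on the log2 scale. Testing required signal well above background on each of the 4 arrays of some group, and the brightest probe stood for its gene. With limma 3.58.1 (R 4.3.3, data.table version 1.17.8, jsonlite version 2.0.0) 4 group means were estimated from 16 arrays by lmFit and eBayes, and the code was tested on simulated data. The alternative background correction, normexp with offset 50, took median signals in place of the mean signals planned. Named genes, other than predicted or clone names, were the 20 largest rises and falls measured on all arrays with no overlap, the 8 largest bounds each way, and list members. Members and lists were chosen with earlier results of these data known. The number of arrays limits the precision. Single genes of some lists are counted but not reported here.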

Additional observations from a re-analysis of the deposited data

Results flagged for a closer look

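A level on 1 array lay far from the other 3 of its group in 18 of 322 groups examined, its gap to the nearest exceeding 0.829 of the range, the critical value for 4 samples. Chance flags about 1 in 20 groups. Tbx3 was at 5.81 on 2i_LIF array 2, above the others of that group at 4.93 to 5.04. Fosb was at 1.33 on LIF_serum array 1, below the others of that group at 2.03 to 2.13. Dusp4 was at 0.83 on LIF_serum array 1, below the others of that group at 1.42 to 1.47. Fgf5 was at −0.26 on LIF_serum array 2, above the others of that group at −2.13 to −1.85. T was at −0.54 on LIF_serum array 2, above the others of that group at −3.31 to −2.94. Hand1 was at −6.08 on 2i_LIF array 4, above the others of that group at −7.39 to −7.22. Ankrd1 was at −5.38 on 2i_LIF array 3, above the others of that group at −7.40 to −7.06. Cdkn1c was at 2.44 on LIF_serum array 2, below the others of that group at 3.24 to 3.40. Nnat was at −0.12 on LIF_serum array 1, below the others of that group at 1.44 to 1.64. Peg10 was at −7.14 on 2i_LIF array 4, below the others of that group at −3.35 to −2.63. Eif2s3y was at −5.27 on 2i_LIF array 1, above the others of that group at −7.47 to −7.25. Eif2s3y was at −4.26 on LIF_serum array 2, below the others of that group at 3.61 to 4.12. Ddx3y was at −4.33 on LIF_serum array 2, below the others of that group at 1.23 to 1.70. Nkd1 was at −3.56 on 2i_LIF array 2, below the others of that group at −2.36 to −2.17. Sash3 was at −5.75 on LIF_serum array 1, above the others of that group at −6.46 to −6.36. Ffar2 was at −5.57 on LIF_serum array 1, above the others of that group at −6.26 to −6.24. Gbp3 was at −6.84 on 2i_LIF array 2, below the others of that group at −5.86 to −5.79. Gbp2b was at −5.58 on 2i_LIF array 1, above the others of that group at −6.32 to −6.23. Lefty2 differed between 2iSB_LIF and 2i_LIF by −6.13 (SE 0.55, adjusted p = 0.00013 by limma), a comparison of different lines with and without SB431542.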

How the results depend on the processing

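Of 161 named genes 138 were called; none of these changed direction under any alternative and 42 lost the call under at least 1, 12 of them without a single array, as given beside them. The settings with the most losses were within slide 1 (30 genes) and against LIF_serum arrays 1 and 2 alone (18). In all 2841 genes were called, 970 higher and 1871 lower. Leaving out each array in turn gave 2396 to 3010 called, 804 to 1061 higher and 1592 to 1949 lower. Counts moved over 1.5-fold within slide 1 (1686 called, 537 higher, 1149 lower), within slide 2 (1938 higher), against LIF_serum arrays 3 and 4 alone (1481 higher) and where all 8 arrays had to be above background (1155 lower), which tests fewer genes. Replicate numbers did not pair the samples (correlations of deviations −0.12, 0.21, −0.18 and 0.26), and the replicate block gave 2734 calls. Between 2iSB_LIF and 2i_LIF, alternatives chosen after seeing the data gave 22 calls with that stricter filter, 3 with only both groups' arrays, 2 within slide 1, 2235 within slide 2 with 1 array each, 8 with the replicate block and 46 with passage as a covariate, against 13, and 11 to 19 without single arrays. The causes were not tested.

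The sign turned only in genes that were not called. Stat3 turned with median centring (0.022), with normexp correction (0.0068), with the slide as a block (0.039), within slide 1 (0.041), within slide 2 (0.089), against LIF_serum arrays 1 and 2 (0.11) and without X-linked genes (0.010). Srf turned with the median probe (−0.32), in the authors' deposited table (−0.00525), within slide 2 (−0.33) and against arrays 3 and 4 (−0.034). Cdh1 turned with the slide as a block (0.00381), within slide 2 (0.52) and against LIF_serum arrays 1 and 2 (0.091). Etv5 turned within slide 1 (−0.24), against LIF_serum arrays 1 and 2 (−0.20) and with passage (−0.079). Vim turned within slide 1 (−0.27), against LIF_serum arrays 1 and 2 (−0.35) and with passage (−0.24). Klf2 turned within slide 2 (0.44) and against arrays 3 and 4 (0.10). Dusp6 turned within slide 2 (0.22) and against arrays 3 and 4 (0.43). Axin2 turned within slide 2 (0.24) and against arrays 3 and 4 (0.44). Socs3 turned within slide 2 (0.027). Tet1 turned against LIF_serum arrays 1 and 2 (−0.031). Klf4 turned against arrays 3 and 4 (0.31). Without single arrays the signs of Cdh1 (−0.53 to 0.10), Etv5 (−0.069 to 0.15), Klf4 (−0.39 to 0.028), Srf (−0.052 to 0.20), Stat3 (−0.10 to 0.088) and Vim (−0.12 to 0.19) turned. Median differences of lists moved beyond the spread in 125 of 935 cases. Bounds are given for genes dim on all 4 arrays of a group and bright on all 4 of the other. Differences of genes dim on some arrays include background values.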
